A study of Drosophila melanogaster with 2 samples.

Results

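The 33 genes described here act in neurons, in their progenitors or in glia, and the question was how often CG4854-eGFP peaks lay at or near them in whole Drosophila melanogaster embryos. They were taken as a named list, and all 33 matched a gene among the 13945 annotated protein-coding genes. Of them, 10 belong to the synapse and axon, 7 make or load neurotransmitters, 14 act in neuroblasts and neural fate, and 2 set glial fate. The samples were 2 biological replicates, numbered 3 and 2, which form 1 group with no untagged or other comparison group. Both were mixed-sex embryos, 0 to 24 hours old, from a transgenic line that stably expresses CG4854 with GFP fused to its C terminus, and the fusion was precipitated with an antibody against GFP. The precipitation recovers the fusion and not untagged CG4854, and the promoter that drives the fusion is not given in the sources used here. Whole embryos mix many cell types, so a site bound in few cells and a site bound weakly cannot be told apart. Expression was not measured, so the neural label of the genes could not be checked against RNA.

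CG4854 is a zinc finger protein of the ZAD family, a group of insect DNA-binding proteins. In the fly embryo, proneural transcription factors give cells the competence to become neuroblasts, which divide asymmetrically and pass through a series of temporal factors. Their daughters become neurons or glia, and neurons then switch on the genes for axon adhesion, vesicle release and transmitter synthesis. Many neural genes are long and have several transcription start sites (TSSs). At release sites, SNARE proteins on the vesicle and the plasma membrane pull the membranes together, a calcium sensor triggers fusion, and enzymes and vesicular transporters determine which transmitter is released.

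Sequences at 5 promoters and 3 other sites are given for the genes on which the results turn most. They were read from the RefSeq Release 6 (dm6) genome, 5′ to 3′ on the strand given, and capitals mark matches to the searched motifs on either strand. Each promoter sequence holds the 100 bases before a start of the gene. The first 3 are shown because these promoters carried the strongest peak candidates of the synapse and axon genes. The Nrg promoter holds the DRE motif (TATCGATA), whose letters include the BEAF-32 core (CGATA), and the Fas2 promoter holds an E-box (CANNTG).
Fas2 promoter, chrX:4206094-4206193, minus strand: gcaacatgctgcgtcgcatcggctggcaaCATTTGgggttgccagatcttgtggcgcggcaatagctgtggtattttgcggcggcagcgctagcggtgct
Nrg promoter, chrX:8517273-8517372, plus strand: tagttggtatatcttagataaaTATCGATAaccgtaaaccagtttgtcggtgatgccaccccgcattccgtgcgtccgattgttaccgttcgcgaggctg
Syx1A promoter, chr3R:24105764-24105863, minus strand: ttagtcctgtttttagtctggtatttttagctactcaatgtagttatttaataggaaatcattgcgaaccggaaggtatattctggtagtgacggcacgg
The next 2 promoters had no candidate in any list. The first serves both ChAT and VAChT, and it holds an E-box. The scrt promoter holds a GAGA match (GAGAG).
ChAT and VAChT promoter, chr3R:18705401-18705500, plus strand: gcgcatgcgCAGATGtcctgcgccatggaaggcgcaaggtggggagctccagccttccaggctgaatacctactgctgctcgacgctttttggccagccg
scrt promoter, chr3L:3983796-3983895, plus strand: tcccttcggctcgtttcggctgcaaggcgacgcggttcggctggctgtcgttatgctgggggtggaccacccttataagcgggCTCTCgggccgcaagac
The last 3 are windows of 50 bases on each side of peak summits away from a promoter. The first 2 are the Syx1A summits kept in the final peak set, and the second of these has TATA matches (TATAAA). The third lies in an intron of ChAT, where both replicates had a strong candidate and the pooled data had none.
Syx1A summit downstream of the gene, chr3R:24099154-24099254, minus strand: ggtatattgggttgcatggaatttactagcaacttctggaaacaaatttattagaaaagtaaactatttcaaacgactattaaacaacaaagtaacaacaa
Syx1A summit upstream of the gene, chr3R:24106437-24106537, minus strand: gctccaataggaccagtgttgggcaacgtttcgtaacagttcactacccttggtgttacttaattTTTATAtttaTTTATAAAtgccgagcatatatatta
ChAT intron summit, chr3R:18719909-18720009, plus strand: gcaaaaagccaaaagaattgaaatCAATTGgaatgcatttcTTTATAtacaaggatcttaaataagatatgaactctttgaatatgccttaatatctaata

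The deposited data were lists of peaks on dm6. The pooled list and each replicate's list held 30000 candidates, which include background, and the final set kept 3106 peaks by their irreproducible discovery rate (IDR), a measure of whether a peak's rank recurs in both replicates. The signal of a peak is the authors' score on the peak caller's scale, and each list has its own scale. It ran from 20.05 to 1776 in the pooled list (median 33.02), from 12.6 to 988 in replicate 2 (median 19.5) and from 12.3 to 850 in replicate 3 (median 20.2). IDR peaks began at a pooled signal of 95.2. The peaks at the Fas2 and insc promoters had the same ranks, 2598 and 3004, in the IDR set and in the pooled list. Of the 3106 IDR summits, 2936 had a candidate within 100 bp in both replicates. A place in the set therefore does not show that a peak's rank recurred. Read depth is not given in the sources used here, so the percentages below have exact Clopper-Pearson 95% intervals that cover counting over genes only, and beside a count of 0 stands the limit set by 3 counts of the total. The intervals treat genes as independent draws, which genes of 1 cluster or with 1 start are not, so they describe the size of the lists and are no test. No test between groups of genes was made.

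Few of the neural genes had a CG4854-eGFP peak at the promoter, here a summit within 500 bp of any TSS. An IDR promoter summit lay at Fas2 and at insc only, 2 of 33 genes (6.06%, interval 0.743 to 20.2), against 15.8% of all protein-coding genes. That interval includes the share of all genes. At the lower bar of a pooled candidate, 9 of 33 genes had a promoter summit (27.3%, interval 13.3 to 45.5), against 50.3% of all genes. The best promoter candidates of those 9 had a median signal of 53.5, against 64.4 over the 7014 of all genes.

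The lists of the single replicates also held fewer promoter candidates at neural genes than at genes in general. In replicate 2, 10 of 33 genes had a promoter candidate (30.3%, interval 15.6 to 48.7), against 50.1% of all genes. In replicate 3 it was 13 of 33 (39.4%, 22.9 to 57.9), against 52.6% of all genes. Both replicates held one at 8 of 33 genes (24.2%, 11.1 to 42.3), against 42.9% of all genes. At least 1 of the 3 lists held one at 15 of 33 genes (45.5%, 28.1 to 63.6), against 60.6% of all genes, which leaves 18 neural genes with no promoter candidate anywhere. The intervals for replicate 3 and for at least 1 list include the share of all genes.

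By role, the pooled list held promoter candidates at more of the synapse and axon genes than of the other roles, but each role has few genes. The pooled list had one at 5 of 10 synapse and axon genes (interval 18.7 to 81.3%), at 1 of 7 transmitter genes (14.3%, 0.361 to 57.9) and at 3 of 14 neuroblast and neural fate genes (21.4%, 4.66 to 50.8), against 50.3% of all genes, and at 0 of the 2 glial genes. The order was not the same in replicate 3, which held one at both glial genes, 6 of 10 synapse and axon genes, 1 of 7 transmitter genes and 4 of 14 neuroblast genes. Synapse and axon genes also had 33 TSSs between them, or 3.30 per gene, against 1.71 per transmitter gene and 1.79 per neuroblast gene. They thus had more windows per gene, and the part of TSS number in these shares was not tested. An IDR promoter summit lay at 1, 0 and 1 genes of these 3 roles. For the transmitter genes, 0 of 7 allows a share of up to 42.9% (3 counts of 7), which is above the 15.8% of all genes, so a lower share was not detectable with so few genes.

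**Figure D1:**
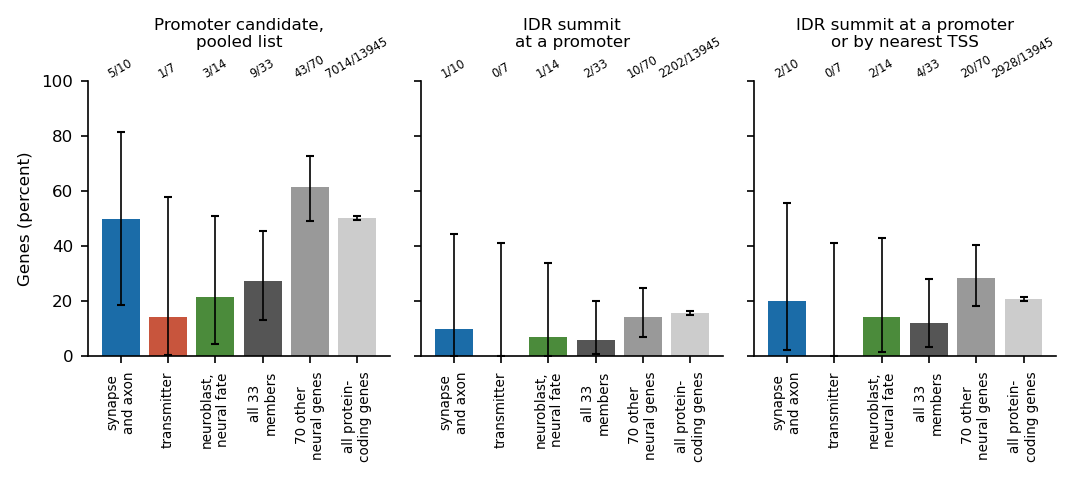
Percent of genes with a pooled candidate at the promoter (left), with an IDR promoter summit (middle) and with an IDR summit at the promoter or by nearest TSS (right), for 3 roles, all 33 neural genes, 70 other neural genes and all 13945 protein-coding genes. Error bars are exact 95% intervals and the numbers above give the genes counted; the 2 glial genes are counted among the 33 but have no bar of their own, and in the left panel the bar of the 33 genes (27.3%) lies below that of all genes (50.3%).

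Among the synapse and axon genes, Fas2 was the one with an IDR peak at its promoter. Fas2 encodes an NCAM-like adhesion protein of axons (X, 4132887 to 4206093, minus strand). Its peak at X, 4205949 to 4206131, had its summit in the 5′ UTR, 59 bp inside the gene. The signal was 107 in the pooled list, where it ranked 2598, 40.1 in replicate 2 (rank 4406) and 70.3 in replicate 3 (rank 1730). The replicates thus differed, with a log2 ratio of replicate 3 to replicate 2 of 0.81, and in replicate 2 the site was not among the 3106 strongest.

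Nrg and Syx1A came next and shared that difference between the replicates. Nrg encodes the fly L1-type adhesion protein Neuroglian, and its candidate 7 bp upstream of the start had a pooled signal of 79.3 (rank 4115), with 22.9 in replicate 2 and 57.4 in replicate 3. Syx1A encodes syntaxin, a SNARE of the plasma membrane, and its candidate 33 bp inside the gene had 77.1 in the pooled list (rank 4302), with 23.2 in replicate 2 and 50.7 in replicate 3. Replicate 3 was higher by 1.32 at Nrg and by 1.13 at Syx1A on the log2 scale. Over the 2936 IDR summits with a match in both replicates, the same log2 ratio had a median of -0.07 and an SD of 0.62. Both of these summits lie more than 1 SD above that median. Their candidates are weaker than any IDR peak. That SD comes from IDR peaks alone and is therefore no measure of the spread among weak candidates. Nrg also had a weaker promoter candidate 274 bp inside a start. It had 42.4 in the pooled list and 32.2 in replicate 2, with no match in replicate 3.

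The other synapse genes had weak promoter candidates or none. At unc-13, whose protein primes vesicles, the best candidate had 45.6 in the pooled list, 23.3 in replicate 2 and 22.5 in replicate 3, so the replicates were close. Syt1, the calcium sensor synaptotagmin, had 33.3 in the pooled list and 19.0 in replicate 2, and replicate 3 held no candidate within 100 bp of that summit. Its own entry of 14.4 lay 462 bp inside a start of the gene. The vesicle SNARE gene nSyb had one in replicate 2 alone (26.4), and complexin (cpx), which clamps SNARE complexes, had one in replicate 3 alone (28.8). No list held a promoter candidate at brp (active-zone scaffold), para (voltage-gated sodium channel) or futsch (MAP1B-like microtubule protein).

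The transmitter genes were nearly free of promoter candidates. Ddc, whose enzyme makes dopamine and serotonin, had a weak one just inside the gene, with 27.5 in the pooled list (rank 19766) and 20.7 in replicate 3, and replicate 2 held none. All 3 lists lacked a promoter candidate at ChAT, which makes acetylcholine, at the vesicular transporter genes VAChT, VGlut and Vmat, at Gad1, which makes GABA, and at ple, the tyrosine hydroxylase gene. The distance of 500 bp mattered at ple, whose nearest candidate (33.8) lay 561 bp from its start, and less so at Vmat, where it lay at 830 bp (66.8). ChAT and VAChT share 1 TSS and are therefore not independent.

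Among the neuroblast and neural fate genes, insc, nerfin-1 and grh had promoter candidates. The protein of insc, Inscuteable, orients the neuroblast spindle, and the IDR peak at 2R, 20835937 to 20836340, had its summit 111 bp upstream of a start that insc shares with sktl, a phosphatidylinositol phosphate kinase gene. This peak cannot be given to either gene. Its signal was 97.1 in the pooled list (rank 3004), just above the weakest IDR peak, with 48.1 in replicate 2 and 50.4 in replicate 3, a log2 ratio of 0.07.

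The zinc finger gene nerfin-1, which acts in newborn neurons, had its candidate 436 bp upstream, near the edge of the window, with 53.5 in the pooled list, 28.5 in replicate 2 and 24.5 in replicate 3. The temporal factor gene grh had 51.0 in the pooled list at 105 bp inside a start, with 15.6 in replicate 2 and 36.3 in replicate 3 at that summit, a difference of 1.21 on the log2 scale. It had 3 weaker promoter candidates at its other starts. Single-replicate candidates lay at pdm2, another temporal factor gene (15.8, replicate 2), at the homeodomain gene pros (16.7, replicate 3), at repo, a homeodomain gene of glia (14.5, replicate 3), and at gcm, which switches cells to glial fate (23.2, replicate 3). No list held one at the proneural genes ac, sc, l(1)sc and ase, at dpn, which keeps neuroblasts dividing, at mira, whose protein carries Prospero, or at cas, scrt and wor, which encode zinc finger factors.

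Of the promoter candidates of these genes, 8 had a match within 100 bp in both replicates. Their log2 ratio of replicate 3 to replicate 2 ran from -0.22 to 1.32 with a median of 0.44, and it was above 0 in 5 of 8. Over all IDR summits the median was -0.07, but of the 8 only the peak of Fas2 and the stronger one of insc are IDR peaks. Further promoter candidates had a match in replicate 2 alone (at Syt1, unc-13, Nrg and grh) or in replicate 3 alone (at Ddc and grh).

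**Figure D2:**
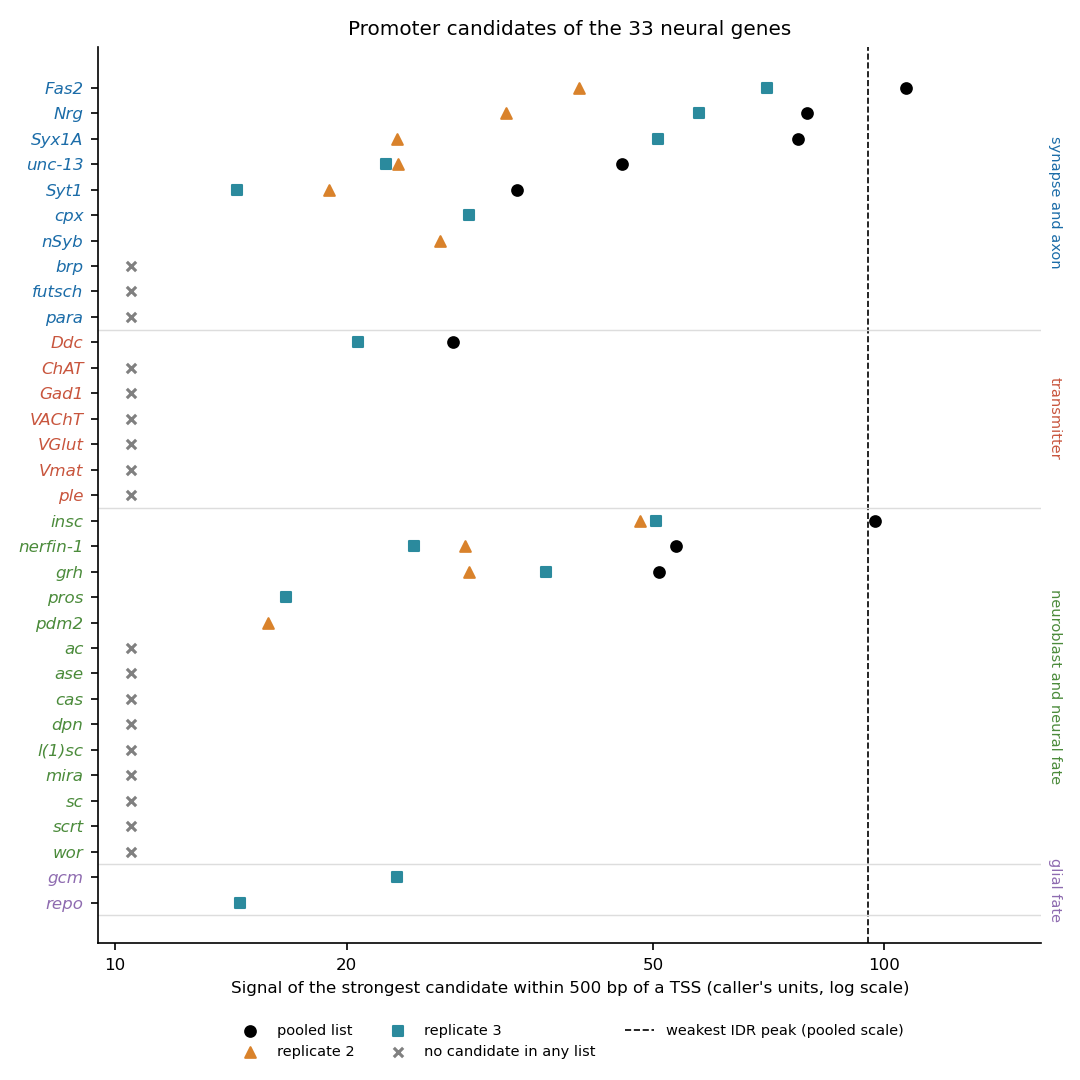
Signal of the strongest promoter candidate of each of the 33 neural genes in the pooled list (circles), replicate 2 (triangles) and replicate 3 (squares), on a log axis in the caller's units, with crosses for the 18 genes without one in any list. The dashed line marks the weakest IDR peak on the pooled scale (95.2), and of the circles those of Fas2 (107) and insc (97.1) lie to its right; the strongest candidate of each list need not be the same summit, and each list has its own scale.

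Away from promoters, IDR summits were assigned by nearest TSS. They fell to 3 of the 33 neural genes (9.09%), grh, insc and Syx1A, against 7.06% of all genes, which is near the background. Together with promoters, 4 of 33 genes had any IDR summit (12.1%, interval 3.40 to 28.2), against 21.0% of all genes. With candidates of the pooled list it was 16 of 33 genes (48.5%, interval 30.8 to 66.5), against 61.2%. Both intervals include the share of all genes. By role, any IDR summit lay at 2 of 10 synapse and axon genes, 0 of 7 transmitter genes and 2 of 14 neuroblast genes. For the transmitter genes the limit of 3 counts is 42.9%, above the 21.0% of all genes.

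The strongest of these distal IDR summits lay in an intron of grh, at 2R, 17804797 to 17805097, with its summit 2058 bp downstream of the nearest start. Its pooled signal of 262 ranked 500, with 109 in replicate 2 (rank 842) and 150 in replicate 3 (rank 354). This was the one site at a neural gene that ranked within the 1000 strongest in all 3 lists.

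Syx1A had 2 IDR summits on either side of the gene (3R, 24101600 to 24105763, minus strand). The peak at 24099137 to 24099292 lay 6559 bp past the start, beyond the end of the gene, with 179 in the pooled list (rank 1066), 83.8 in replicate 2 and 98.1 in replicate 3. The peak at 24106419 to 24106543 lay 724 bp upstream, with 165 in the pooled list (rank 1235), 81.7 in replicate 2 and 76.1 in replicate 3. The log2 ratio of replicate 3 to replicate 2 was 0.23 at the downstream site and -0.10 at the upstream site, so the replicates were close. Syx1A itself lies inside eIF4EHP, a gene for a cap-binding translation repressor, and both summits lie in an intron of eIF4EHP, so they go to Syx1A by nearest TSS and not by the gene that holds them. The upstream summit would also count as a promoter summit of Syx1A in a window of 1000 bp.

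The second site of insc, at 2R, 20837856 to 20838259, lay 2030 bp upstream of the start it shares with sktl, with 138 in the pooled list (rank 1688), 64.5 in replicate 2 and 76.5 in replicate 3. An IDR peak inside an intron of Nrg, at X, 8538172 to 8538575, went by nearest TSS to PIP82. It had 126 in the pooled list (rank 1997), 56.9 in replicate 2 and 67.3 in replicate 3. Counted by the gene that holds them, distal summits would go to Nrg and grh.

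These 33 genes lay farther from peaks than genes in general, which was not so for candidates in a wider list of 70 other neural genes. The median distance from a start to the nearest pooled candidate was 3.04 kb (quartiles 0.436 and 14.5) for the neural genes, against 0.486 kb (0.087 and 5.69) for all genes. For IDR summits it was 20.6 kb (11.5 and 50.9), against 10.4 kb (2.61 and 29.6). Of the 33 genes, 13 (39.4%) had no candidate within 5 kb, against 26.8% of all genes. For the 70 other neural genes the medians were 0.272 kb to a candidate and 13.7 kb to an IDR summit, and 17.1% had no candidate within 5 kb. The median distance to a candidate was 0.699 kb for synapse and axon genes, 3.61 kb for transmitter genes and 4.67 kb for neuroblast genes.

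The 33 genes also held fewer candidates per kb of their spans than genes in general. They had a median span of 10.4 kb, against 2.17 kb for all genes. Their spans held 92 pooled candidates in 665 kb of distinct sequence, or 13.8 per 100 kb, against 23.5 per 100 kb over all genes. The 70 other neural genes, with a median span of 11.4 kb, held 23.4 per 100 kb. IDR summits inside the spans of the 33 numbered 3, or 0.451 per 100 kb, against 1.92 over all genes and 1.52 over the 70 other neural genes. The part of gene length in these densities was not tested. The density of candidates was 16.3 per 100 kb in synapse and axon genes, 12.7 in neuroblast genes and 4.82 in transmitter genes, whose 83.0 kb held 4. In the territory nearest to their starts and over 500 bp from any start, with summits of a shared start divided between its genes, the 33 genes had 14.6 candidates and 0.660 IDR summits per 100 kb, against 18.1 and 1.197 for all genes. There, the synapse and axon genes had 22.0 candidates per 100 kb, transmitter genes 14.4, neuroblast genes 8.61 and the 70 other neural genes 26.9. The order of transmitter and neuroblast genes was thus the reverse of that in the spans.

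The candidates inside the spans were concentrated in a few long genes. Of the 92, 66 lay in unc-13 (21), Nrg (19), grh (16) and Fas2 (10), and the other 29 genes shared 26. At the other end, brp (37.8 kb) and futsch (44.6 kb) held none in the pooled list, replicate 2 or replicate 3. The sodium channel gene para held 2 in 78.1 kb in the pooled list, 7 in replicate 2 and 2 in replicate 3, and pros held 1, 2 and 1 in 79.1 kb. Of 13 neural genes of at least 20 kb, 3 held no pooled candidate (23.1%), against 22.3% of all genes of that length. The 3 were brp, futsch and ChAT, and ChAT held 1 candidate in each replicate's list. Neural genes of that length held a median of 3 pooled candidates and 14.1 per 100 kb, against 7 and 20.3 for all such genes. With 13 genes, these values are a description.

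In brp the empty stretch ended close to the 3′ end. The first pooled candidate lay 224 bp past the end, and the next 10 kb held 11, among them the IDR peak of CG1888 with a signal of 993 (rank 13 of the pooled list), 5615 bp past the end. The 10 kb before brp held none. Likewise, pros had its first candidate 195 bp past its end and 3 in the next 10 kb, and para had 5 there, with none in the 10 kb before either gene. At futsch neither pattern was seen, with 1 candidate in the 10 kb before and 0 in the 10 kb after.

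**Figure D3:**
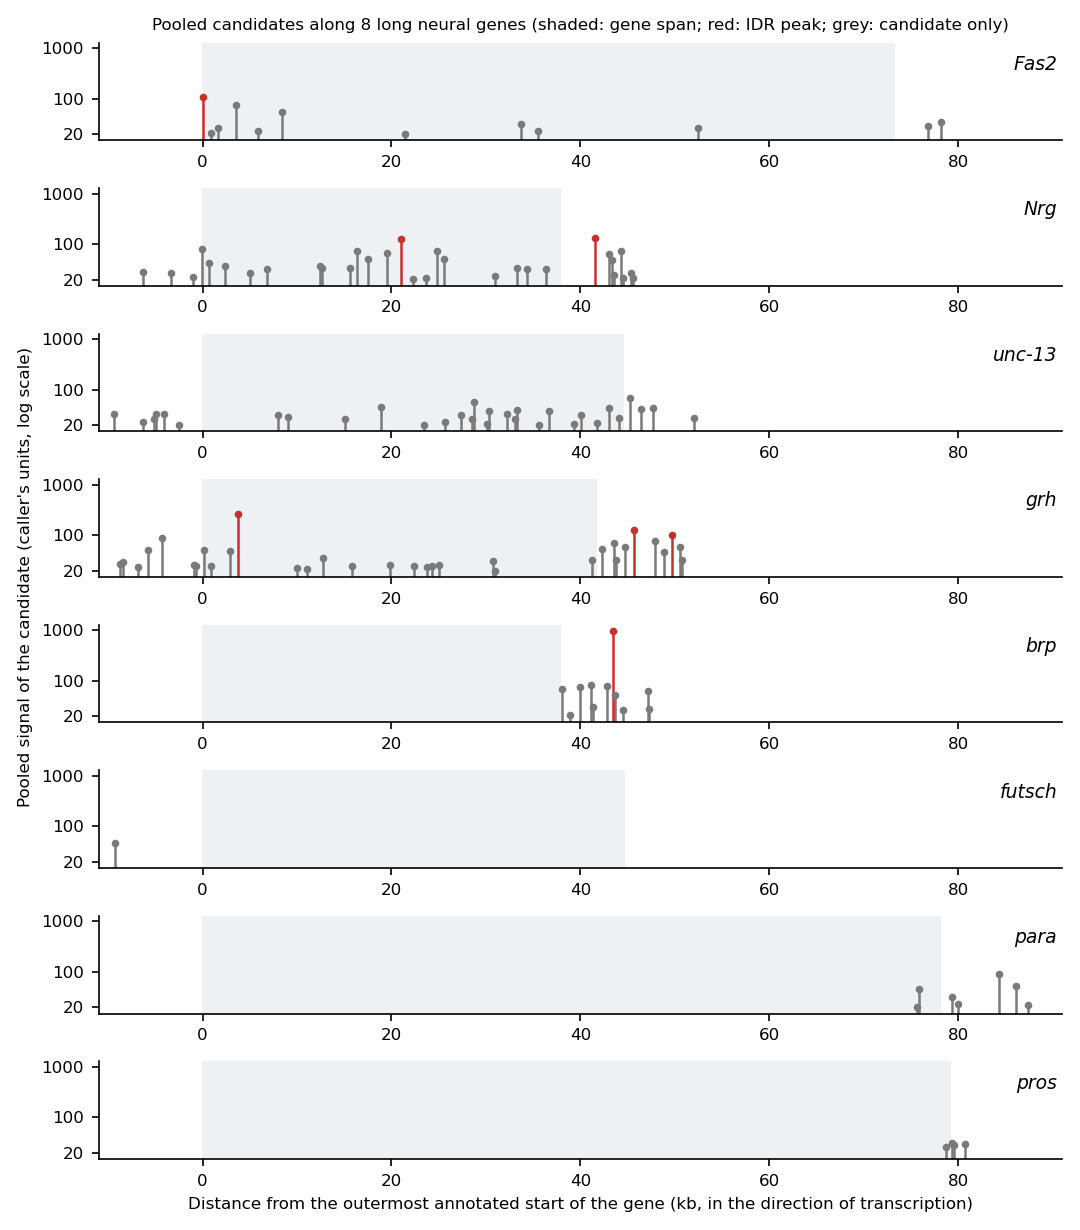
Pooled candidates along 8 of the long neural genes from 10 kb before to 10 kb after each, with distance from the outermost start in kb along the direction of transcription and signal in the caller's units on a log axis. Shading marks the gene, red an IDR peak and grey a candidate only; Fas2, Nrg, unc-13 and grh hold 10 to 21 candidates, while brp and futsch hold none and the peak of 993 lies past the end of brp.

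The proneural genes ac, sc, l(1)sc and ase lie together on X, from 370031 to 463176, and are therefore close to 1 site rather than 4. These 93.1 kb held 7 pooled candidates, 9 in replicate 2 and 8 in replicate 3, and no IDR peak. The nearest IDR summit was 33.3 kb from ase and 124 kb from ac, the largest distance among the 33 genes.

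At ChAT the lists disagreed. Replicate 2 had a candidate in an intron of ChAT with its summit at 3R, 18719959, a signal of 107 and rank 872. Replicate 3 had one 4 bp away, at 18719963, with 107 and rank 772. The pooled list had no candidate nearer than 20.1 kb, and the IDR set had no peak in ChAT.

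Of the 1978 sites that were among the 3106 strongest of both replicates and within 100 bp of each other, 18 (0.91%) had no pooled candidate within 300 bp, and ChAT was the only one of the neural genes to hold such a site. The cause was not tested. By nearest TSS the site would go to CG34283, 2631 bp away, and not to ChAT, whose start is 14.5 kb away, so the counts by nearest TSS would not give it to a transmitter gene.

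The starts of the neural genes were richer in G and C than starts in general. In windows from 250 bases before to 50 bases after a TSS, the GC content had a median of 48.7% over their 71 distinct TSSs, against 39.3% over all 19253. It was 43.3% at synapse and axon genes, 50.3% at transmitter genes and 49.3% at neuroblast genes. Among the neural TSSs, the 18 with a pooled candidate had a lower median (43.0%) than the 53 without one, and over all TSSs the medians were 38.0% with and 40.3% without.

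Split into 4 classes of similar size by GC, all TSSs had a candidate in 54.8%, 55.4%, 49.2% and 40.3% of cases, low to high, and an IDR summit in 14.5%, 19.6%, 14.1% and 8.30%. Of the 71 neural TSSs, 40 (56.3%) fell in the class above 45.7% GC, against 24.7% of all TSSs. There, 6 of 40 neural TSSs had a candidate, against 40.3% of all TSSs in that class. From low to high GC, 0 of 4, 5 of 9, 7 of 18 and 6 of 40 neural TSSs had one. TSSs of 1 gene can share a window, and the part of GC content in the lower share was not tested.

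**Figure D4:**
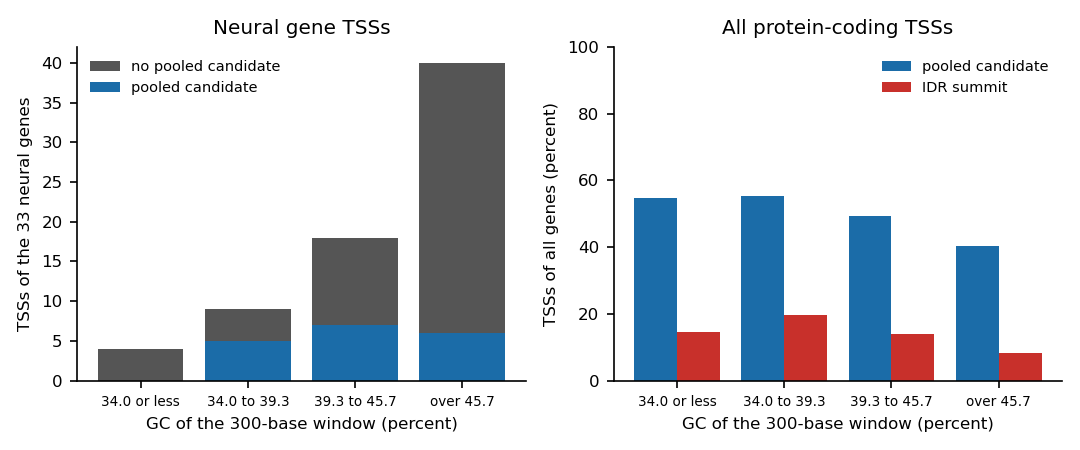
Left, number of TSSs of the 33 neural genes in each of 4 classes of GC content (percent of the 300-base window), with those that had a pooled candidate in blue. Right, percent of all 19253 TSSs with a pooled candidate (blue) and with an IDR summit (red) in the same classes; most neural TSSs are in the richest class (40 of 71), where 40.3% of all TSSs had a candidate.

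Motif letters in the same 300-base windows also differed between the neural and all TSSs. The DRE motif, bound by the factor Dref, was in 6 of 71 neural windows (8.45%), against 7.98% of all windows, while its CGATA core was in 20 (28.2%), against 45.7%. GAGAG, the motif of GAGA factor, was in 39 (54.9%), against 33.1%, and CAGGTAG, the motif of the early embryonic factor Zelda, in 4 (5.63%), against 1.69%. TATAAA was in 20 (28.2%), against 42.2%, and the M1BP core GGTCACACT in 1 (1.41%), against 5.23%. The E-box CANNTG was in 49 (69.0%), against 77.8%, and its form CAGCTG in 12 (16.9%), against 17.9%. Windows of 1 gene overlap, and base composition differs between the sets, so these are descriptions of letters.

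Around the 6 IDR summits given to the neural genes, within 50 bp, GAGAG was present at 3, against 10.4% of all IDR summits, and TATAAA at 1, against 18.8%. The other 6 motifs were at none of the 6. Over all IDR summits they were present at 38.1% for CANNTG, 18.1% for CGATA, 4.89% for CAGCTG, 2.64% for DRE, 1.03% for the M1BP core and 0.547% for CAGGTAG.

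In a wider list of 70 other neural genes, promoter candidates were more frequent. Among them, 43 had a pooled promoter candidate (61.4%, interval 49.0 to 72.8) and 10 an IDR promoter summit (14.3%), against 50.3% and 15.8% of all genes, while the 33 genes had 27.3% and 6.06%. Any IDR summit lay at 20 of the 70 (28.6%), against 21.0% of all genes, and any pooled candidate at 51 (72.9%), against 61.2%. Their TSS windows had a median GC content of 48.0%, against the 39.3% of all genes, and thus close to the 48.7% of the 33 genes. The contrast between the lists was not tested, because genes were picked for both with results known.

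Of 15 other transmitter genes, 4 had a promoter candidate (26.7%, interval 7.79 to 55.1), against 50.3% of all genes, and 0 had an IDR promoter summit, against 15.8%. The 4 were Pu (81.1), Hdc (71.1), Tbh (39.6) and Ace (35.3), which act in pteridine cofactor, histamine and octopamine synthesis and in acetylcholine breakdown. Of 26 other synapse and axon genes, 18 had a candidate (69.2%), and IDR promoter summits lay at dlg1, a scaffold (158), PlexA, a semaphorin receptor (127), sli, a midline repellent (111), and Rop, a syntaxin-binding protein (105). Of 21 other neuroblast and neural fate genes, 15 had a candidate (71.4%), and IDR promoter summits lay at the neuronal RNA-binding gene elav (460), the Notch inhibitor gene numb (225), the growth suppressor gene brat (114) and da, whose protein pairs with proneural factors (100.2). Of 8 other glial genes, 6 had one, with IDR summits at moody, a receptor gene of blood-brain barrier glia (362), and Gli, a septate junction gene (95.9).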

How the data were processed

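Chromatin immunoprecipitation and sequencing of 2 biological replicates (numbers 3 and 2, per the labels) gave the deposited narrowPeak lists. The signal used here is a score that the authors deposited in the peak caller's scale. The authors also deposited −log10 q-values, which were not used, since the IDR set holds 1 constant value. The lists were derived from each replicate, the pooled alignments and a shared control, per the text beside the deposit. The sources used here name no aligner, caller or IDR threshold and give no read depth. Mock precipitations and the dm3 lists were not analysed here.

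Coordinates are dm6 (Release 6), counted from 1. TSSs came from protein-coding transcripts of Ensembl release 115 (BDGP6 version 54), and sequence from the RefSeq Release 6 genome. A summit within 500 bp of any TSS is a promoter summit, and others went to the nearest TSS. Replicate summits within 100 bp were matched. Python 3.11.15, numpy 2.4.6, pandas 2.3.3, scipy 1.17.1 and matplotlib 3.10.9 were used, and assignment was tested on simulated positions. No test between gene groups was run, because 1 group of 2 replicates allows none. The rule for named genes took every listed gene, and of the 70 other neural genes up to 4 per role with an IDR promoter summit, and the 4 transmitter genes with a candidate were named after their values were seen. The sequence at the Fas2 summit lies in a 5′ UTR, so bases upstream of its TSS are printed instead, and the other promoters, 1 further site and the windows for Syx1A were chosen with values known. The members and lists were chosen with earlier results of these data known. Alternatives covered the TSS window, the transcripts, a stricter peak set, peak overlap, gene span and leaving out each replicate.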

Additional observations from a re-analysis of the deposited data

How the results depend on the processing

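Of 57 alternatives to 9 results, 46 stayed within 1.5 times the value given, or within the spread between replicates (SD 2.11) for the median signal, and 11 moved beyond it. With the 1553 strongest IDR peaks, no neural gene kept an IDR promoter summit (0, against 2), while the share of all genes was 8.79%. The limit set by 3 counts of 33 is 9.09%, so a lower share was not detectable there. With those peaks, any IDR summit lay at 1 synapse and axon gene and 1 neuroblast gene, against 2 each. Leaving out a replicate leaves 1 list and no IDR set, so strong candidates of the remaining replicate stood in for IDR peaks there. These gave 0 to 2 genes with such a promoter summit. They were 0 without replicate 3, against 16.5% of all genes, and Fas2 and Nrg without replicate 2, against 15.3%. Synapse and axon genes with any such summit numbered 1 to 3. The shares of all genes given for these settings are for promoter summits, so the counts of any summit have no background beside them. Nrg has no IDR promoter peak. Distal IDR summits numbered 2 by gene span, against 4 by nearest TSS. The median promoter signal was 64.1 with 250 bp, 66.8 with 1000 bp and 65.3 with candidates at or above the median signal, against 53.5. Single replicates gave 24.5 to 27.5, on their own scales. Within 1000 bp of a start, Syx1A joined Fas2 and insc, against 18.3% of all genes. Transmitter genes stayed at 0 in every alternative run, counting IDR summits or, where a replicate was left out, such strong candidates. The causes were not tested.

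No paired analysis was possible because the samples form 1 group. Counts of 2 to 16 genes and an unknown read depth limit every share, and both replicates come from 1 line without an untagged comparison here.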
